A study of Mus musculus with 15 samples.

Results

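The mitochondrial carriers of the SLC25 family were followed in mouse tibialis anterior muscle that had received a form of LSMEM2 or a control protein. The members are the 44 entries, of 42396 in each count table, whose symbol is Slc25a followed by digits alone. By that rule 3 ATP-Mg/phosphate carriers, Slc25a23, Slc25a24 and Slc25a25, were left out, as were further entries of a symbol that carry a suffix. The rule used gene names and no measured value.

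SLC25 carriers are nuclear-encoded proteins that fold through the mitochondrial inner membrane and exchange a metabolite on one side for another on the other side. In muscle they bring ADP, phosphate, acylcarnitines and reducing equivalents to the respiratory chain and send ATP back to the cytosol. A few relatives sit elsewhere, such as Slc25a46 in the outer membrane and Slc25a17 in peroxisomes, and for several others the substrate is not settled.

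All animals were adult C57BL/6 mice, and each group received adeno-associated virus of serotype AAV6 in the hindlimb, with muscle taken 2 months later. The virus encoded either LSMEM2 C-del or, in the mock groups, EGFP, a green fluorescent protein used as a reporter. Messenger RNA was sequenced in 4 mock and 4 C-del libraries of males and in 3 mock and 4 C-del libraries of females, and the field for genotype holds only the sex. The labels do not explain C-del, name the promoter of the vector or tie each library to its own animal, so the p-values reflect only how far these libraries spread, and that spread may be technical. Each sex has its own count table, and the effects of sex and of table cannot be told apart. Male libraries are numbered here by their column, because their columns match the labels by group alone.

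Library totals ran from 9285150 to 17744000 counts. Lsmem2, the delivered gene, was at 28.5 to 32.8 CPM (counts scaled to the size of the library) in the 7 mock libraries and at 481 to 2705 CPM in the 8 C-del libraries. Within male C-del libraries it was at 481 CPM in C-del 1, against 2355, 1865 and 1287 CPM in C-del 2, 3 and 4. The extraction text speaks of hearts, but 9 skeletal muscle markers summed to between 108600 and 148100 CPM in every library, 7 heart markers summed to 8.17 to 32.7 CPM, and 2 to 4 of the 7 were at 0. Libraries stood apart within groups. Female mock 2 held 4780 CPM of 8 lymphocyte markers against 7.61 to 105 CPM in the other 14 libraries. The 9 macrophage markers summed to 540 and 265 CPM in female mock 2 and 3, against 86.9 CPM in female mock 1 and 54.8 to 112 CPM in female C-del libraries. Before adjustment 7 of the 8 markers tested in females were lower in C-del with p under 0.05, against 7.09% of all genes. The 6 endothelial markers summed to 322 to 362 CPM in female mock and 413 to 447 CPM in female C-del libraries. Before adjustment 4 of the 6 were higher there with p under 0.05, against 4.81% of all genes. Myh2, a skeletal muscle marker, was at 1563 to 2480 CPM in female mock and 3743 to 5489 CPM in female C-del libraries. In males Myh2 was at 1318 to 1500 CPM in mock and 1452 to 2057 CPM in C-del libraries. In males the 9 macrophage markers summed to 180 and 197 CPM in C-del 1 and 2, against 58.5 and 74.2 CPM in C-del 3 and 4 and 72.3 to 87.4 CPM in mock libraries. The 5 fibroblast markers summed to 2049 and 1541 CPM in male mock 3 and 4. They summed to 879 and 840 CPM in male mock 1 and 2 and to 853 to 1087 CPM in male C-del libraries. Before adjustment 5 of 7 tendon markers were lower in male C-del with p under 0.05, against 12.9% of all genes. Of the skeletal muscle markers, Myh4 was at 30220 and 28660 CPM in male C-del 1 and 2, against 38770 and 41680 CPM in C-del 3 and 4. Myh1 ran the other way, at 17970 and 18080 CPM against 14240 and 13760 CPM. Male mock libraries held 41880 to 46610 CPM of Myh4 and 12120 to 12500 CPM of Myh1. Neighbouring male columns also deviated from their group mean together, with correlations over genes of 0.02 to 0.15 for columns 1 with 2 and 3 with 4, against -0.60 to -0.46 for the other pairs within a group. Taking out the group mean pulls correlations within a group below 0 even for unrelated libraries, so the 2 ranges are read against each other. Calls that rest on the libraries that stood apart are therefore given with and without them. The part of these markers in the other results was not tested. In whole muscle, fewer cells of a type and less RNA per cell cannot be told apart.

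Carrier transcripts were dominated by the muscle ADP/ATP exchanger Slc25a4 (ANT1). Per kb of merged exons it averaged 2232 CPM over the 7 mock libraries, which was 80.1% of the summed level of all members on that scale. The phosphate carrier Slc25a3 followed at 164 CPM per kb, then the oxoglutarate/malate carrier Slc25a11 at 96.2, the aspartate/glutamate carrier Slc25a12 (aralar) at 82.5 and the second ADP/ATP exchanger Slc25a5 (ANT2) at 29.6 CPM per kb. Each of the first 4 stood above the next in 7 of 7 mock libraries, whereas Slc25a5 stood above the glutathione carrier Slc25a39 (24.6 CPM per kb) in 5 of 7. The place of Slc25a11 depends on the entries counted: a second entry of that symbol held 99.5% as many counts in males, and with both summed the carrier averaged 192 CPM per kb and ranked above Slc25a3. The plot of levels per kb shows that the remaining members averaged 17.6 CPM per kb or less and that many neighbours in the order overlap.

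**Figure D1:**
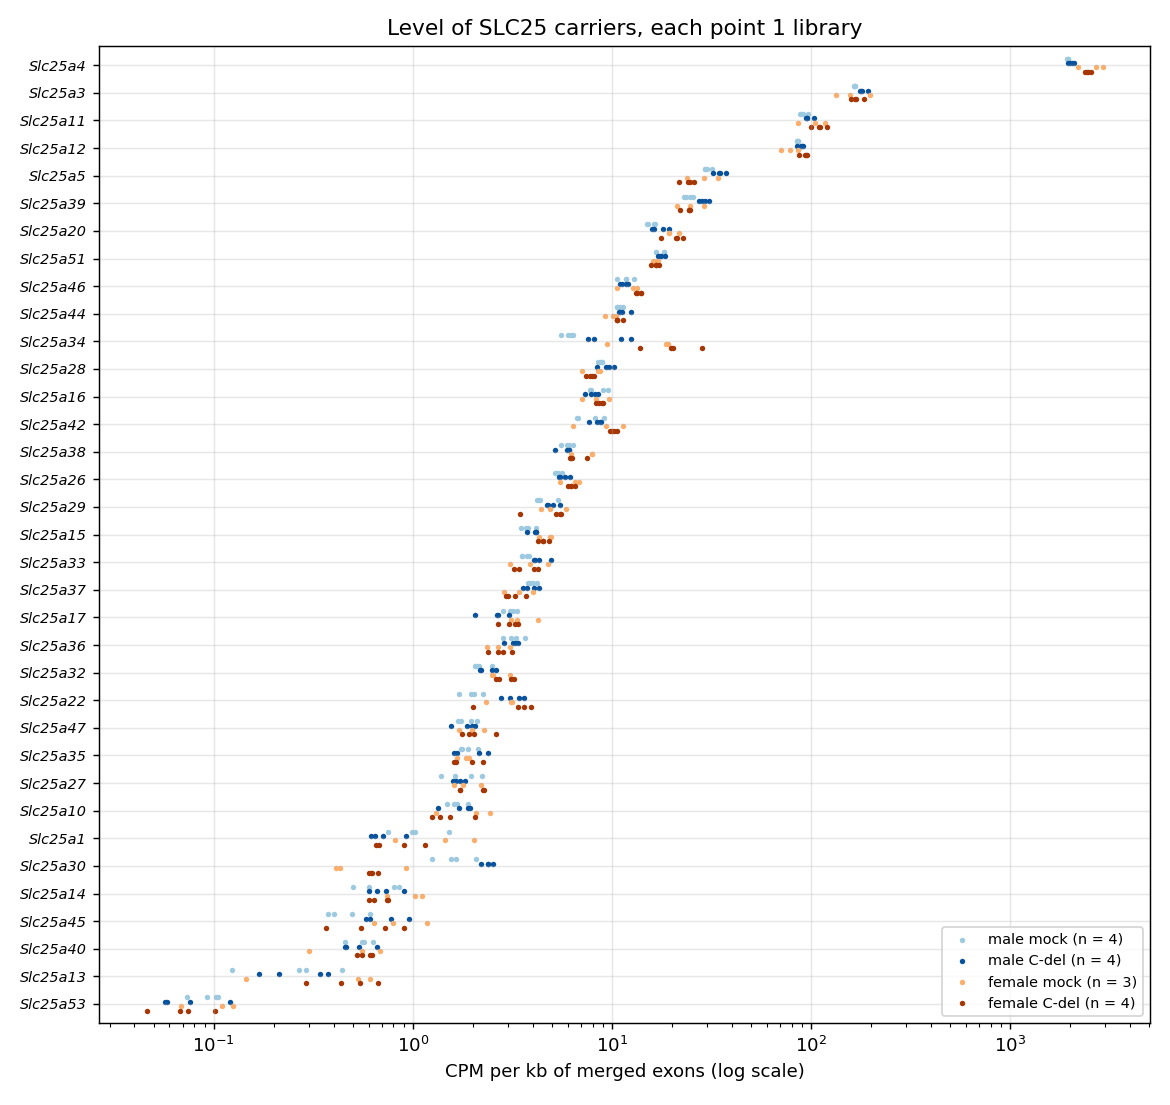
Level of carriers that could be tested, in CPM per kb of merged exons on a log axis, with 1 point per library and colours for the 4 groups. Slc25a4 stands alone near 2232 CPM per kb, and neighbouring carriers in the lower part of the order overlap. Slc25a30 shows a gap between the male and the female table. Slc25a34 shows a gap between male and female mock libraries, but male C-del (up to 12.4 CPM per kb) overlaps female mock (from 9.44).

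At the other end, 8 members did not pass the filter on low counts in either sex and were not tested. They were the testis ADP/ATP exchanger Slc25a31, Slc25a41, the glutamate carrier Slc25a18, the oxodicarboxylate carrier Slc25a21, the ornithine carrier Slc25a2, Slc25a43, Slc25a48 and Slc25a54. Their highest count in any library was 0.5 for Slc25a31 and 5 for Slc25a2 and Slc25a43. Slc25a53 was tested in males and in the fit of all 15 libraries but was too low in the female table.

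Within each sex, C-del was set against mock by edgeR's quasi-likelihood test over all genes. Passing means an adjusted p (Benjamini-Hochberg) under 0.05. In males 7 of 36 members tested rose (19.4%), against 5.8% of all 14543 genes tested, and 0 fell, against 5.37% of all genes. The members that rose included Slc25a22, Slc25a34, Slc25a30, Slc25a39, Slc25a5 and Slc25a3. DESeq2 also gave 7 higher and 0 lower, against 5.72% and 4.69% of all genes. Before adjustment, 10 members were higher and 2 lower with p under 0.05, where the shares over all genes were 13.1% and 12.9%. The fitted log2 fold change was above 0 for 24 of 36 members (66.7%), against 49% of all genes, with a median of 0.06 beside -0.00475 over all genes. The 4 C-del libraries all lay above the 4 mock libraries for 8 members, the 7 that passed and Slc25a33 (22.2% against 9.05% of all genes), and all lay below for 0 members (8.51% of all genes).

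The count of 7 depends on which libraries enter. It was 4 to 6 with any single male library left out and 4 without male C-del 1 and 2, among them Slc25a22, Slc25a30 and Slc25a34. It was 3 without male mock 3 and 4, among them Slc25a22 and Slc25a30. With neighbouring male columns summed, or with all 15 libraries fitted together, only Slc25a22 passed. The share of all genes that passed as higher moved too, from 5.8% to between 3.92% and 5.39% with single male libraries left out, 4.33% without male C-del 1 and 2, 2.62% without male mock 3 and 4, 1.04% with neighbouring columns summed and 1.4% with all 15 libraries together.

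In females 0 of 35 members passed in either direction by edgeR, and 0 by DESeq2. Over all 14220 genes edgeR passed 0.0141% as higher and 0% as lower, and DESeq2 passed 0.83% and 1.82%. Before adjustment, 1 member (Slc25a12) was higher and 0 were lower with p under 0.05, against 4.81% and 7.09% of all genes. The female log2 fold change was above 0 for 18 of 35 members (51.4%), against 47.6% of all genes, with a median of 0.03 beside -0.02 over all genes. Without female mock 2 and 3, which leaves 1 mock library, it was above 0 for 14 of 35. All C-del libraries lay above all mock libraries for 2 members, Slc25a12 and Slc25a44 (5.71% of members and 5.71% of all genes), and all lay below for 0 (4.39% of all genes).

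Averaged over both sexes in a fit of all 15 libraries, 0 of 36 members passed by edgeR, against 2.42% higher and 1.99% lower over 15272 genes. DESeq2 passed 3 as higher, Slc25a12, Slc25a22 and Slc25a34 (8.33%, against 3.84% of all genes), and 0 as lower. Leaving out female mock 1 raised the share of all genes passing by edgeR on average to 5.58% higher and 7.62% lower, which is the background for single carriers that passed without that library. Before adjustment, 3 members had p under 0.05 upward and 2 downward, against 8.89% and 10.8% of all genes. The averaged log2 fold change was above 0 for 26 members (72.2%), against 45.7% of all genes. The female minus male difference also passed for 0 members by edgeR, against 0.17% higher and 0.183% lower over all genes, while DESeq2 passed 1 as lower, Slc25a5, along with 2.99% of all genes. At an unadjusted p under 0.05 the difference was above 0 for 0 members (7.09% of all genes) and below 0 for 5 (9.76% of all genes), and it was above 0 at any p for 12 of 36 (33.3%, against 48.3% of all genes). Of the 35 members tested in both sexes, 11 were fitted higher in both, 4 lower in both, 13 higher in males and lower in females, and 7 the reverse. The plot of fitted changes shows both sexes by substrate.

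**Figure D2:**
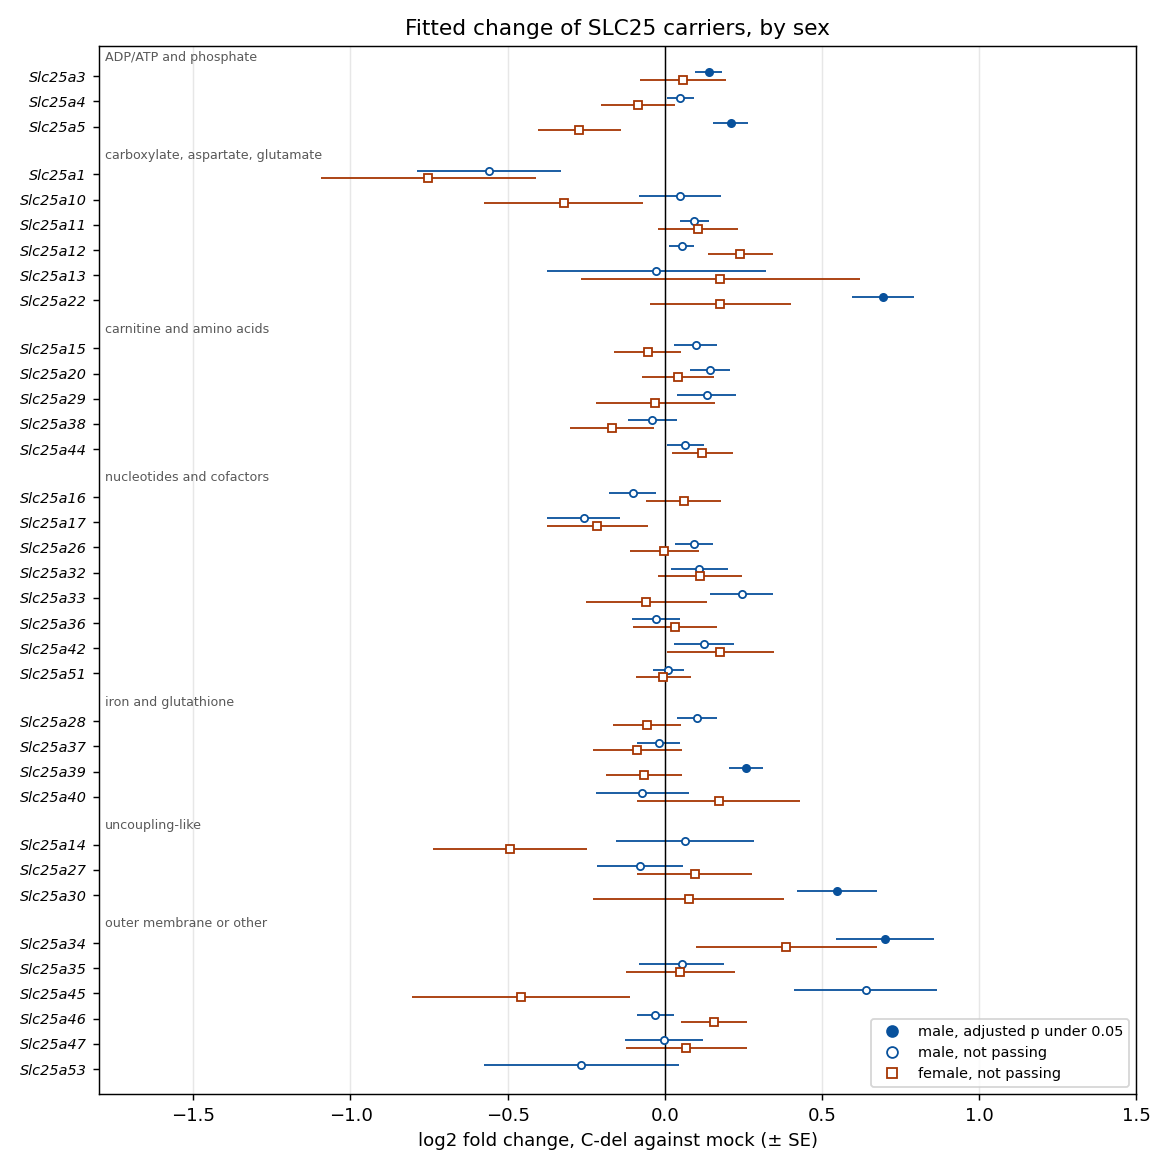
Fitted log2 fold change of C-del against mock (± SE) for carriers tested, grouped by substrate, with males as circles and females as squares. The filled circles mark 6 carriers that passed in males, and no female square is filled.

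The first group moves ADP, ATP and phosphate, the substrates and product of ATP synthase. Of 5 members, 3 were tested, and 2 of these rose in males. Slc25a4, the muscle exchanger (chr8:46206797-46211284, minus strand), was at 4613, 4610, 4562 and 4601 CPM in male mock and at 4696, 4579, 4821 and 4926 CPM in male C-del libraries. It was at 6371, 5137 and 6867 CPM in female mock and at 5579, 5719, 5984 and 5796 CPM in female C-del libraries. Groups overlapped in both sexes, and the log2 fold change was 0.05 (SE 0.04, edgeR adjusted p = 0.522) in males and -0.09 (SE 0.12, edgeR adjusted p = 0.794) in females.

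Slc25a5, the more widely expressed exchanger (chrX:36795651-36798807, plus strand), was at 48.2, 48.2, 52.1 and 49.3 CPM in male mock and at 57.4, 61.5, 53.1 and 56.8 CPM in male C-del libraries. All male C-del libraries lay above all male mock libraries, and the carrier rose 1.16-fold (log2 0.21, SE 0.06, edgeR adjusted p = 0.0263). The female libraries had 39.4, 56.2 and 47.8 CPM in mock and 36.0, 40.5, 42.4 and 39.7 CPM in C-del libraries. There the groups overlapped, with a log2 fold change of -0.27 (SE 0.13, edgeR adjusted p = 0.457). It was -0.39 to -0.14 with single female libraries left out, and 0.01 without female mock 2 and 3, a fit with 1 mock library. The highest female values were those of mock 2 and 3, the libraries with 540 and 265 CPM of macrophage markers. The female minus male difference was -0.48 (SE 0.13, edgeR adjusted p = 0.088). It passed by DESeq2 (adjusted p = 0.0197), where 2.99% of all genes passed as lower, and by edgeR without female mock 1 (adjusted p = 0.00293), where 7.69% did, against 0.183% in the edgeR fit of all 15 libraries. Per kb, Slc25a4 stood 61.2 to 66.9 times above Slc25a5 in male mock, 52.1 to 63.5 times in male C-del, 64.0 to 113 times in female mock and 98.8 to 109 times in C-del libraries of females.

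Slc25a3, which imports phosphate with protons (chr10:91116574-91124059, minus strand), was at 921, 911, 925 and 914 CPM in male mock and at 1072, 993, 997 and 982 CPM in male C-del libraries. The groups did not overlap, and the carrier rose 1.10-fold (log2 0.14, SE 0.04, edgeR adjusted p = 0.0487). Female mock libraries had 875, 743 and 1093 CPM and female C-del libraries 886, 937, 1024 and 919 CPM, with overlap and a log2 fold change of 0.06 (SE 0.14, edgeR adjusted p = 0.886). Its average over sexes was 0.10 (edgeR adjusted p = 0.468) and passed without female mock 3 (0.037). Slc25a3 no longer passed with any 1 of the 8 male libraries left out (edgeR adjusted p = 0.0539 to 0.125), and Slc25a5 no longer passed without male mock 1, 2 or 4 or male C-del 1 or 2 (0.057 to 0.0764). Without male C-del 1 and 2 together, the log2 fold changes were 0.11 and 0.15 (edgeR adjusted p = 0.102 and 0.172). Under total-count scaling the adjusted p was 0.112 for Slc25a3 and 0.0777 for Slc25a5.

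**Figure D3:**
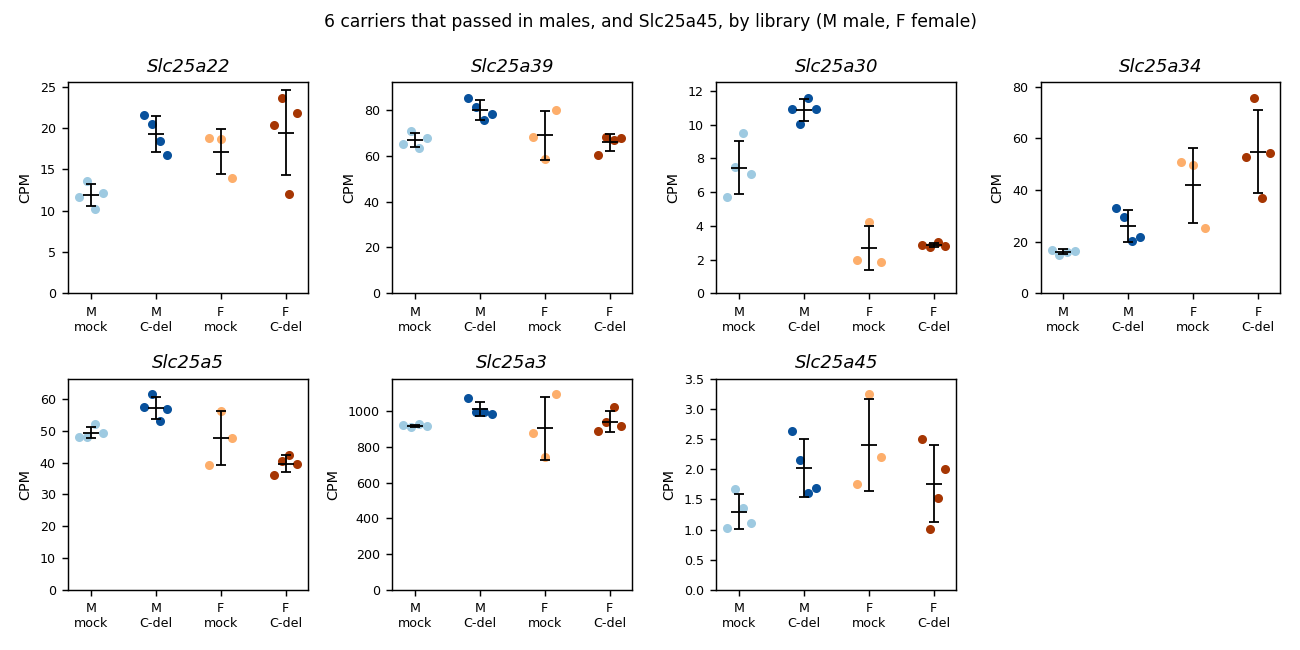
Level in CPM by library (linear axes from 0) of 6 carriers that passed in males and of Slc25a45, with the group mean and SD (n = 4, 4, 3 and 4). Male C-del points of the first 6 panels all lie above the male mock points, while female mock and C-del points overlap in every panel.

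The second group carries di- and tricarboxylates, aspartate and glutamate, and includes the carriers of the malate-aspartate shuttle. Of its 8 members 6 were tested, and in males 1 rose and 0 fell, with 1 lower at p under 0.05 before adjustment. Slc25a22, a carrier that brings glutamate in with protons (chr7:141429744-141437892, minus strand), was at 11.7, 13.6, 10.2 and 12.2 CPM in male mock and at 21.6, 20.5, 18.4 and 16.7 CPM in male C-del libraries. The lowest C-del library stood above the highest mock library, and the carrier rose 1.62-fold (log2 0.69, SE 0.10, edgeR adjusted p = 0.000488). It passed under 17 of 17 other settings, with a log2 fold change of 0.56 to 0.76, and none of the other 6 did. In females it was at 18.8, 18.7 and 13.97 CPM in mock and at 20.3, 23.6, 12.0 and 21.8 CPM in C-del libraries. There 3 C-del libraries lay above all mock libraries and 1 below, and the log2 fold change was 0.18 (SE 0.22, edgeR adjusted p = 0.781). The average over sexes was 0.44 (SE 0.12, edgeR adjusted p = 0.0554), and the female minus male difference was -0.52 (SE 0.25, edgeR adjusted p = 0.294). The average passed without female C-del 3 (adjusted p = 0.00439), the library with the lowest value, and without female mock 1 (0.0289).

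The promoter windows of Slc25a22 and of Slc25a34, the members with the largest male increases, are printed because both come from genes that moved in one direction in males. RefSeq gives Slc25a22 3 start windows, of which the outermost is shown, at chr7:141437825-141438124 on the minus strand of GRCm38.p6, from 250 bases before to 50 bases after the start. Capitals mark the GC box, GGGCGG.
Slc25a22: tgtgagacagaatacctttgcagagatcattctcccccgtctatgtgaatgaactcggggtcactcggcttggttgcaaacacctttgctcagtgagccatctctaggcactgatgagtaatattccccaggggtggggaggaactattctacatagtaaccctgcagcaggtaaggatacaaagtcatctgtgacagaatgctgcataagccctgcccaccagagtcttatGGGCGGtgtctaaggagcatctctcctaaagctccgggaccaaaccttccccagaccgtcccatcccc

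Slc25a34 has 1 window, at chr4:141623785-141624084 on the minus strand of GRCm38.p6. Capitals mark AAGGTCA, a half-site bound by estrogen-related receptors, and then the GC box, both read on the other strand.
Slc25a34: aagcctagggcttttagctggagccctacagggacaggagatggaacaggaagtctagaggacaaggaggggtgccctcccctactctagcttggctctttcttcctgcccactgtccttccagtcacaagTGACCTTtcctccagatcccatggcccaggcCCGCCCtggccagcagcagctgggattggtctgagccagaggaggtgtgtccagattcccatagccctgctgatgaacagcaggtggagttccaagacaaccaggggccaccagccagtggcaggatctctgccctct

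The RefSeq table held 40 windows of 300 bases for 33 members. A GC box, read on both strands, lay in 33 of the 40 windows (82.5%), against 35.7% of all 32851 windows and 46.2% of the 21263 windows of protein-coding genes. AAGGTCA lay in 1 of 40 (2.5%), that of Slc25a34, against 4.72% of all windows. The cyclic-AMP element TGACGTCA lay in 1 of 40 (2.5%), that of the pyrimidine nucleotide carrier Slc25a36, against 1.79%, and the palindromic motif of the factor NRF1 lay in 0 of 40, against 0.971%. None of the 4 motifs contains another, and a match is a description of the letters alone.

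Slc25a12, the main aspartate/glutamate carrier of muscle and a step of the malate-aspartate shuttle (chr2:71271063-71367749, minus strand), was at 625.2, 621.8, 632.8 and 631.4 CPM in male mock and at 654, 628, 659 and 667 CPM in male C-del libraries. Male groups overlapped through 1 C-del library, and the log2 fold change was 0.05 (SE 0.04, edgeR adjusted p = 0.425). Among females it was at 630, 575 and 522 CPM in mock and at 683, 643, 697 and 697 CPM in C-del libraries. Female groups did not overlap, but the log2 fold change of 0.24 (SE 0.10, edgeR adjusted p = 0.396) did not pass over all genes, and it was 0.11 without female mock 2 and 3, with 1 mock library left. The average of 0.15 (SE 0.05) passed by DESeq2 (adjusted p = 0.00826) and not by edgeR (adjusted p = 0.0872), although it did by edgeR without female mock 1 (0.0107).

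Slc25a11, the partner of Slc25a12 in the shuttle, was at 191, 193, 187 and 204 CPM in male mock and at 220, 203, 201 and 204 CPM in male C-del libraries. In females it was at 221, 182 and 250 CPM in mock and at 212, 236, 256 and 233 CPM in C-del libraries. Groups overlapped in both sexes, with log2 fold changes of 0.09 (edgeR adjusted p = 0.214) and 0.11 (edgeR adjusted p = 0.766), and 8.9% of its exon bases overlap Rnf167 on the opposite strand.

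Slc25a1, which exports citrate for cytosolic acetyl-CoA (chr16:17925223-17928219, minus strand), was near the lower limit of what these libraries resolve. It was at 1.62, 2.15, 3.28 and 2.22 CPM in male mock and at 2.00, 1.53, 1.34 and 1.40 CPM in male C-del libraries. In females it was at 1.76, 3.16 and 4.40 CPM in mock and at 2.51, 1.47, 1.94 and 1.41 CPM in C-del libraries. Groups overlapped in both sexes, and the log2 fold change was -0.56 (SE 0.23, edgeR adjusted p = 0.136) in males, -0.75 (SE 0.34, edgeR adjusted p = 0.427) in females and -0.66 (SE 0.21, edgeR adjusted p = 0.0869) on average. The average passed without female mock 1 (edgeR adjusted p = 0.0129), and the female value was -1.03 to -0.43 with single libraries left out and 0.07 without female mock 2 and 3, a fit with 1 mock library. Counts per library were 14.5 to 47.5, and an equal number stood under a second entry of the symbol. Adipocytes use exported citrate for fat synthesis, and their 7 markers summed to 202 to 270 CPM in male mock and 184 to 204 CPM in male C-del libraries, and to 220 to 313 CPM in female mock and 244 to 361 CPM in female C-del libraries, with 0 of 7 at 0. Fabp4 alone held 164 to 174 CPM in male mock libraries. Over the 6 markers tested, the median log2 fold change was -0.81 in males, with 1 above 0, and -0.035 in females, with 2 above 0. Before adjustment 2 were lower in males with p under 0.05, against 12.9% of all genes. The part of adipocytes in the Slc25a1 values was not tested. The dicarboxylate carrier Slc25a10 and the liver-type aspartate/glutamate carrier Slc25a13 (citrin) had log2 fold changes of 0.05 and -0.03 in males (edgeR adjusted p = 0.858 and 0.973).

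**Figure D4:**
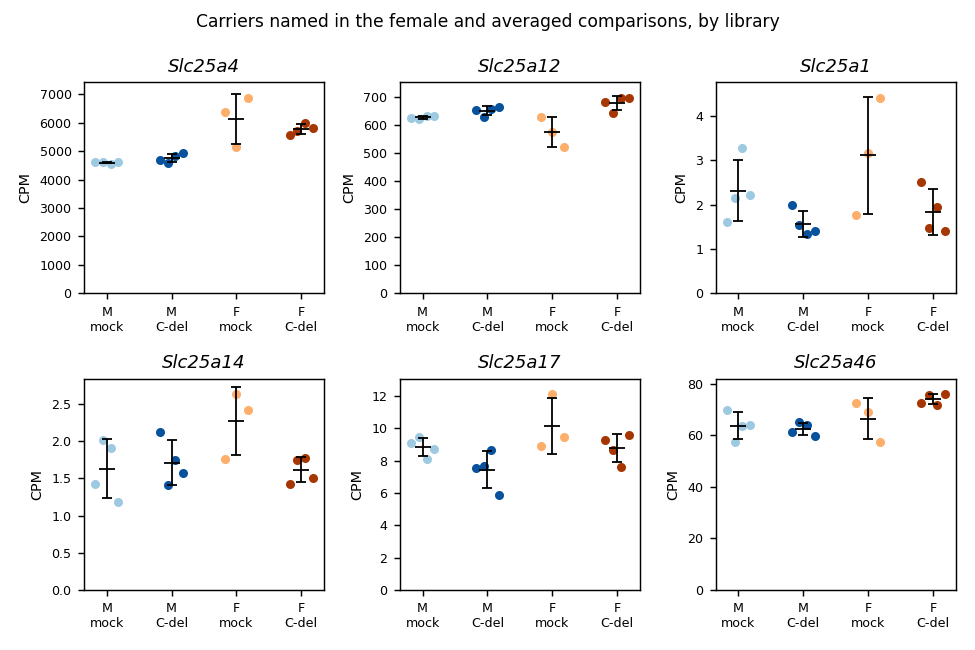
Level in CPM by library (linear axes from 0) of 6 carriers named in the female and averaged comparisons, with the group mean and SD (n = 4, 4, 3 and 4). Of these, the female C-del points lie wholly above the female mock points for Slc25a12, and the other panels overlap between C-del and mock in each sex.

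Carriers of carnitine and amino acids gave 0 passing members of 5 tested in either sex. The carnitine/acylcarnitine carrier Slc25a20, which admits fatty acids for oxidation, was at 78.8, 73.6, 72.4 and 79.8 CPM in male mock and at 93.4, 87.2, 77.3 and 78.5 CPM in male C-del libraries. The groups overlapped, and the log2 fold change was 0.14 (SE 0.06, edgeR adjusted p = 0.167) in males and 0.04 (edgeR adjusted p = 0.904) in females. The male value was 0.03 without male C-del 1 and 2. Slc25a44, a branched-chain amino acid carrier, was at 37.5, 36.2 and 33.0 CPM in female mock and at 37.8, 38.2, 40.6 and 38.1 CPM in female C-del libraries. Those groups did not overlap, and the log2 fold change of 0.12 (SE 0.10, edgeR adjusted p = 0.649) did not pass. The ornithine carrier Slc25a15, the basic amino acid carrier Slc25a29 and the glycine carrier Slc25a38 had male log2 fold changes of 0.10, 0.13 and -0.04 (edgeR adjusted p = 0.398, 0.412 and 0.795).

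Among carriers of nucleotides and cofactors, the 8 described here gave 0 passing members by edgeR in either sex. In males, 1 of them was higher and 1 was lower with p under 0.05 before adjustment, and DESeq2 passed 0 of them in either sex. Slc25a33, a pyrimidine nucleotide carrier, was at 7.11, 6.71, 7.23 and 6.67 CPM in male mock and at 9.35, 7.65, 8.11 and 7.79 CPM in male C-del libraries. These groups did not overlap, yet the log2 fold change of 0.24 (SE 0.10, edgeR adjusted p = 0.135) did not pass. Its further 2 entries each held 96.9% as many counts in males, and with all 3 summed the change of 0.24 passed (edgeR adjusted p = 0.0436). The 3 entries held nearly the same totals and how they were made is not given, so that pass cannot be read as separate evidence. In addition 14.9% of the exon bases of Slc25a33 overlap Gm13068 on the opposite strand, and the use of strand in counting is not given.

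Slc25a17, the peroxisomal carrier of coenzyme A and related cofactors, was at 9.12, 9.46, 8.12 and 8.75 CPM in male mock and at 7.54, 7.65, 8.64 and 5.87 CPM in male C-del libraries. In females it was at 8.89, 12.1 and 9.46 CPM in mock and at 9.31, 8.64, 7.61 and 9.57 CPM in C-del libraries. Groups overlapped in both sexes, and the log2 fold change was -0.26 (edgeR adjusted p = 0.178) in males, -0.21 (edgeR adjusted p = 0.625) in females and -0.24 (edgeR adjusted p = 0.184) on average. The NAD carrier Slc25a51 averaged 17.1 CPM per kb and had a male log2 fold change of 0.01 (SE 0.05, edgeR adjusted p = 0.913) and a female one of -0.0042 (SE 0.09, edgeR adjusted p = 0.989). The remaining 5, the coenzyme A carriers Slc25a16 and Slc25a42, the S-adenosylmethionine carrier Slc25a26, the folate and FAD carrier Slc25a32 and Slc25a36, had male log2 fold changes between -0.10 and 0.13.

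Carriers of iron and glutathione gave 1 passing member of 4 tested in males. Slc25a39, which imports glutathione (chr11:102402985-102407946, minus strand), was at 65.2, 70.8, 63.4 and 67.7 CPM in male mock and at 85.1, 81.0, 75.4 and 77.9 CPM in male C-del libraries. The groups did not overlap, and it rose 1.20-fold (log2 0.26, SE 0.05, edgeR adjusted p = 0.00655), passing under 13 of 17 other settings. It no longer passed without male C-del 1 and 2 (edgeR adjusted p = 0.0629) or without male mock 3 and 4 (0.0832). Female libraries held 68.1, 58.7 and 80.0 CPM in mock and 60.3, 68.2, 67.0 and 67.6 CPM in C-del libraries, with overlap and a log2 fold change of -0.07 (SE 0.12, edgeR adjusted p = 0.849). Its close relative Slc25a40 stood far lower, at 0.54 CPM per kb against 24.6, with a male log2 fold change of -0.07 (edgeR adjusted p = 0.812). The mitoferrins Slc25a37 and Slc25a28, which import iron, had male log2 fold changes of -0.02 and 0.10 (edgeR adjusted p = 0.899 and 0.333). Red-cell precursors use Slc25a37 and Slc25a39 for heme, and the 7 erythroid markers summed to 433 to 623 CPM in male mock and 555 to 1289 CPM in male C-del libraries, with 0 of 7 at 0. In females these markers summed to 427 to 669 CPM in mock and 312 to 953 CPM in C-del libraries. Their part in the Slc25a39 values was not tested.

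Relatives of the uncoupling proteins gave 1 passing member of 3 tested in males. Slc25a30 (chr14:75760117-75787037, minus strand) was at 5.69, 7.51, 9.48 and 7.08 CPM in male mock and at 10.96, 10.03, 11.59 and 10.93 CPM in male C-del libraries. The groups did not overlap, and it rose 1.46-fold (log2 0.55, SE 0.13, edgeR adjusted p = 0.0137), passing under 15 of 17 other settings. The exceptions were all 15 libraries fitted together (edgeR adjusted p = 0.12) and neighbouring male columns summed (0.116). In females the level was lower, at 1.98, 4.21 and 1.87 CPM in mock and 2.86, 2.76, 3.04 and 2.82 CPM in C-del libraries. The female groups overlapped through mock 2, with a log2 fold change of 0.08 (SE 0.30, edgeR adjusted p = 0.937), and without that library the average over sexes was 0.56 and passed (edgeR adjusted p = 0.0256).

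Slc25a14, another relative of the uncoupling proteins, was at 1.76, 2.63 and 2.42 CPM in female mock and at 1.43, 1.75, 1.78 and 1.51 CPM in female C-del libraries. The groups overlapped by 1 library on each side, and the log2 fold change was -0.49 (SE 0.24, edgeR adjusted p = 0.471). In males it was at 1.42, 2.01, 1.91 and 1.18 CPM in mock and at 2.13, 1.42, 1.74 and 1.57 CPM in C-del libraries, with a log2 fold change of 0.06 (edgeR adjusted p = 0.891). Slc25a27 had log2 fold changes of -0.08 in males and 0.10 in females (edgeR adjusted p = 0.767 and 0.858).

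The last group holds members without a settled substrate and the outer membrane protein Slc25a46, and 1 of its 6 tested members rose in males. Slc25a34 (chr4:141618824-141623821, minus strand), whose promoter is printed above, was at 16.9, 14.9, 16.1 and 16.6 CPM in male mock and at 33.2, 29.8, 20.2 and 21.7 CPM in male C-del libraries. All C-del libraries lay above all mock libraries, with C-del 1 and 2 above C-del 3 and 4, and it rose 1.63-fold (log2 0.70, SE 0.16, edgeR adjusted p = 0.0223). C-del 1 and 2 were also the male libraries with the highest macrophage markers (180 and 197 CPM) and the lowest Myh4 (30220 and 28660 CPM). Without them the log2 fold change was 0.38 and still passed (edgeR adjusted p = 0.0147). It did not pass without male C-del 2 or without any 1 of the 4 male mock libraries (edgeR adjusted p = 0.0545 to 0.0674), nor without the filter on low counts (0.0662).

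In females Slc25a34 was at 50.8, 49.8 and 25.2 CPM in mock and at 52.9, 75.7, 36.8 and 54.4 CPM in C-del libraries. The groups overlapped, and the log2 fold change was 0.39 (SE 0.29, edgeR adjusted p = 0.623). The average over sexes was 0.55 (SE 0.17), with an adjusted p of 0.0956 by edgeR and 0.0227 by DESeq2, and edgeR passed it without female mock 1 (0.0415).

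Slc25a45 was low, at 1.03, 1.68, 1.37 and 1.11 CPM in male mock and at 2.64, 2.15, 1.61 and 1.69 CPM in male C-del libraries. The groups overlapped by 1 library on each side, and the log2 fold change was 0.64 (SE 0.23, edgeR adjusted p = 0.0874). It was 0.35 without male C-del 1 and 2 (edgeR adjusted p = 0.476). In females it was at 1.76, 3.25 and 2.20 CPM in mock and at 2.51, 1.01, 1.52 and 2.02 CPM in C-del libraries, with a log2 fold change of -0.46 (SE 0.35, edgeR adjusted p = 0.627). The difference between the sexes, -1.10 (SE 0.41, edgeR adjusted p = 0.182), was the one furthest from 0 among the 36 members in that fit and did not pass.

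Slc25a46, which takes part in mitochondrial membrane remodelling, was at 72.8, 69.1 and 57.5 CPM in female mock and at 72.7, 75.8, 71.9 and 76.0 CPM in female C-del libraries. Female groups overlapped, with a log2 fold change of 0.16 (SE 0.11, edgeR adjusted p = 0.589), which was 0.06 without mock 3, the lowest library. The male value was -0.03 (edgeR adjusted p = 0.804). Slc25a35, Slc25a47 and Slc25a53 had male log2 fold changes of 0.05, -0.0026 and -0.27 (edgeR adjusted p = 0.844, 0.994 and 0.642), and 31.3% of the exon bases of Slc25a35 overlap Rangrf on the opposite strand.

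Mock libraries of the 2 tables were set side by side without a test, because table and sex coincide. Of 35 members with a mean above 1 CPM, 26 overlapped, 7 were higher in every female mock library (20%, against 14.8% of all 14659 genes above that level) and 2 were higher in every male mock library (5.71%, against 12% of all). Slc25a34 averaged 16.1 CPM ± 0.90 (SD, n = 4) in male and 41.9 CPM ± 14.5 (SD, n = 3) in female mock libraries, a 2.60-fold higher level in females. Slc25a30 lay the other way, at 7.44 CPM ± 1.57 (SD, n = 4) in male and 2.69 CPM ± 1.32 (SD, n = 3) in female mock libraries, 2.77-fold higher in males. Slc25a4 was 1.33-fold higher in female mock libraries.

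Other genes of mitochondrial transport were read from lists. Over all genes tested, edgeR passed 5.8% as higher and 5.37% as lower in males, and 0.0141% and 0% in females. Of 8 relatives of the family under other symbols or left out by the rule, 7 were tested and 3 rose in males: Slc25a25, the uncoupling protein Ucp3 (log2 0.52, edgeR adjusted p = 0.000438) and the outer membrane insertase Mtch1 (log2 0.17, edgeR adjusted p = 0.0346). Mtch1 no longer passed without 1 of 6 male libraries (edgeR adjusted p = 0.0652 to 0.0947). In females only Slc25a25 of these 7 passed, at 22.8 to 25.5 CPM in mock and 68.3 to 109 CPM in C-del libraries, and it did not without female mock 3 (edgeR adjusted p = 0.0665). Of 22 genes in a transport list outside the family, mostly of the inner membrane, 1 rose in males, the cation exchanger Letm1 (log2 0.22). Another 2 fell, the calcium uniporter regulator Micu3 (-0.44) and the sideroflexin Sfxn5 (-0.61). Without male C-del 1 and 2, neither decrease passed (log2 -0.27 and -0.56, edgeR adjusted p = 0.159 and 0.179). A further list held outer membrane channels, kinases and carnitine acyltransferases. Of its 11 genes tested, 1 rose in males, the mitochondrial creatine kinase Ckmt2 (log2 0.44, edgeR adjusted p = 0.0174), which uses ATP exported by Slc25a4. Ckmt2 was at 1959 to 2085 CPM in male mock, 3232 and 2930 CPM in male C-del 1 and 2 and 2313 and 2401 CPM in male C-del 3 and 4. Without C-del 1 and 2 its log2 fold change was 0.23 and passed (edgeR adjusted p = 0.00324), whereas it did not pass without male C-del 2 (0.056), male mock 3 (0.0508) or male mock 3 and 4 (0.125). Of 13 genes that import and insert carriers, 0 passed in either direction by edgeR in males. Before adjustment 1 was lower with p under 0.05 and 0 were higher, against 12.9% and 13.1% of all genes.

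Among 27 enzymes that make or use the carried substrates, 6 rose and 3 fell in males by edgeR, against 5.8% and 5.37% of all genes. In females 0 passed by edgeR. Before adjustment 4 had p under 0.05 upward in females and 0 downward, against 4.81% and 7.09% of all genes. The aspartate aminotransferases Got1 and Got2, which act with Slc25a12 in the malate-aspartate shuttle, rose in males by 0.25 and 0.28 on the log2 scale (edgeR adjusted p = 0.00238 and 0.00223). Their averages over both sexes of 0.30 and 0.29 also passed (edgeR adjusted p = 0.00855 and 0.0153), though that of Got2 did not without male C-del 1 and 2 (0.0867). Got1 was at 628 to 647 CPM in male mock and 729 to 808 CPM in male C-del libraries, and at 620 to 714 CPM in female mock and 726 to 929 CPM in female C-del libraries. The groups did not overlap in either sex for Got1. Mat2a, which makes the S-adenosylmethionine that Slc25a26 carries, rose by 0.61 in males (edgeR adjusted p = 1.32e-05), had a log2 fold change of -0.10 in females and differed between the sexes (-0.71, edgeR adjusted p = 0.0339). That difference did not pass without male C-del 1 and 2 (edgeR adjusted p = 0.0855) or without any 1 of 10 single libraries (0.0581 to 0.102). The NADP-dependent isocitrate dehydrogenase Idh2 fell by 0.61 in males (edgeR adjusted p = 0.000664). The lists' medians over tested genes in males were 0.06 for the enzymes and 0.04 for carrier import, beside 0.06 for the carriers and -0.00475 for all genes.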

How the data were processed

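Per the labels' protocols, libraries were prepared with a kit that marks strand. The authors deposited estimated counts per gene without normalisation (expected counts, because between 14.6% and 17.3% of a library's values were not whole). Per the submitters' processing notes, featureCounts 2.0.0 and the build GRCm38.p6 were used. Which aligner ran, whether strand was used in counting and how reads with several matches were treated is not given in the sources used here. Values were rounded to whole numbers, although whole counts had been assumed when the test was chosen, and genes were kept by filterByExpr (minimum count 10), scaled by TMM and tested by edgeR's robust quasi-likelihood test with Benjamini-Hochberg adjustment over all genes of the table (threshold 0.05). Each sex was fitted alone. A joint fit of the 15 libraries gave the average and the female minus male difference. CPM use TMM-scaled library sizes, and lengths and coordinates are merged exons of GENCODE M21, on GRCm38.p6. Each SE was derived from the log2 fold change and the F statistic.

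The members and the gene lists were chosen with earlier results of these data known. Values in every library are given for members that passed, for the 5 with the highest level per kb in mock, and for the 5 with the smallest p where fewer passed. A single member is counted in the totals but not reported here. Slc25a20, Slc25a33 and Slc25a44 were added after their values were seen. Of the other lists, up to 4 passing genes are named per list and comparison.

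Alternatives were other scaling, no filter, DESeq2, leaving out libraries, a joint fit and a replicate block. Several, given in the closing section, were chosen after the data had been seen. The smallest chi-square per gene between libraries of a group was 2.62, so none was counted as a copy. The gene tests were tested on simulated data. Intervals of counting error were not used, since each comparison rests on replicate libraries. Versions were R 4.3.3, edgeR 4.0.16, limma 3.58.1, DESeq2 1.42.0, Python 3.11.15, numpy 2.4.6, pandas 2.3.3 and matplotlib 3.10.9.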

Additional observations from a re-analysis of the deposited data

Results flagged for a closer look

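In 3 of the 45 groups of 4 libraries examined among the named members, 1 library stood apart from the other 3 beyond Dixon's 95% critical value of 0.829. Chance alone gives about 1 in 20 such groups, or 2.25 of 45. The phosphate carrier Slc25a3 was at 1072 CPM in male C-del 1, with 982 to 997 CPM in the other male C-del libraries. The oxoglutarate/malate carrier Slc25a11 was at 220 CPM in the same library, with 201 to 204 CPM in the others. The glutathione carrier Slc25a39 was at 60.3 CPM in female C-del 1, with 67.0 to 68.2 CPM in the other female C-del libraries. Male C-del 1 also had 180 CPM of macrophage markers and the lowest Lsmem2 of the C-del libraries (481 CPM). Among male libraries it held the highest level of Slc25a22, Slc25a34, Slc25a39 and Slc25a3, but not of Slc25a5 or Slc25a30. The part of the Lsmem2 level in these values was not tested. Without male C-del 1 the male log2 fold change of Slc25a3 was 0.11 (edgeR adjusted p = 0.118).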

How the results depend on the processing

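The settings chosen after seeing the data were total-count scaling, entries of a symbol summed, neighbouring male columns summed, and male C-del 1 and 2, male mock 3 and 4 or female mock 2 and 3 left out. The count of 7 carriers higher in males became 1 in a fit of all 15 libraries, 1 with neighbouring columns summed, 4 without male C-del 1 and 2, 3 without male mock 3 and 4, and 4 to 6 with single libraries left out (4 without male C-del 2 or male mock 1, 2 or 4). The count of 0 higher on average became 3 with DESeq2 and 0 to 3 with single libraries left out (3 without female mock 1, 1 without female mock 2 or 3 or female C-del 3), and the count of 0 lower became 0 to 1. Over all genes the share higher on average was 2.42%, against 3.84% with DESeq2 and 5.58% without female mock 1. The count of 0 lower in the female minus male difference became 1 with DESeq2 and 0 to 1 with single libraries left out, through female mock 1, where the share of all genes passing as lower went from 0.183% to 2.99% and 7.69%. The cause of these moves was not tested. Female counts were 0 under each setting run. The shares of all genes passing as higher and lower in females were 0.0141% and 0% in the main fit. They were 0.775% and 6.36% without female mock 1, 1.72% and 3.37% with all 15 libraries fitted together, and 0.83% and 1.82% with DESeq2. Same-numbered female libraries did not deviate together (correlations of -0.134, -0.00813 and -0.0411), so the numbers were not taken as pairs. A replicate block in females gave 2 higher on average, Slc25a22 and Slc25a34, and 0 in females alone, with 706 genes passing on average against 673. Values that changed sign were all far from the threshold. Without female mock 2 and 3, which leaves a single mock library that is assumed to vary like the other libraries in the fit, Slc25a1 was 0.0717 and Slc25a5 0.0107 in females, Slc25a5 0.106 on average, and Slc25a11 -0.0159 in the difference. Slc25a4 was 0.00295 on average without male C-del 1 and 2. With single libraries left out, Slc25a11 ran from -0.0084 to 0.217 in females and from -0.101 to 0.129 in the difference, Slc25a3 from -0.0649 to 0.217 in females and from -0.203 to 0.083 in the difference, Slc25a4 from -0.0741 to 0.0321 on average and from -0.199 to 0.00249 in females, and Slc25a5 from -0.0837 to 0.0369 on average. Among log2 fold changes of named members, 301 of the values without a left-out single library kept direction and side of the threshold, 22 dropped below it and 6 rose past it, and with single libraries left out these were 368, 18 and 7. Members near 1 CPM, such as Slc25a1, Slc25a14 and Slc25a45, rest on few counts, which limits what can be resolved for them.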
